A study of Mus musculus with 8 samples.

Results

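The Toll-like receptors described here are 10 genes, Tlr1 to Tlr9 and Tlr13, chosen by name and measured in 8 bone marrow RNA libraries. They are 10 of the 47643 entries of the macrophage table, and all 10 were also found in the plasma cell table. They were taken as 5 surface receptors (Tlr1, Tlr2, Tlr4, Tlr5 and Tlr6) and 5 endosomal receptors (Tlr3, Tlr7, Tlr8, Tlr9 and Tlr13). Toll-like receptors are membrane proteins with which macrophages recognise microbial molecules and molecules released by damaged cells. Surface receptors bind lipids, lipopeptides or flagellin, whereas endosomal receptors meet nucleic acids in acidified vesicles, to which the chaperone Unc93b1 carries them. Nearly all signal through the adaptor Myd88, which leads through kinases of the Irak family to NF-kappaB and to cytokine genes, and marrow macrophages that clear dying cells and microbes use both kinds.

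The libraries came from mouse bone marrow, and each group holds 2. Tumor-associated macrophages (TAM) came from wild-type B6 mice that had been injected in the tibia with GFP-positive Vk*MYC myeloma cells, a transplantable mouse plasma cell tumour that had been purified on CD138. They were sorted as F4/80 high, CD11b low cells. GFP-positive cells made up the group in contact with myeloma (TAM-IC), and GFP-negative cells made up the group not in contact (TAM-NIC). Macrophages of the same sort from naive mice served as the control. A further pair of libraries is labelled plasma cells. The study describes both GFP high, CD138 high myeloma cells and GFP-negative, CD138 high, B220 low plasma cells of naive mice, and the sources used here do not say which library holds which. The ages of the mice are not given either, and contact is read from GFP alone, so a cell that had taken up GFP counts as in contact. No label states how many animals each library pools, so p-values measure only the spread between these libraries.

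The macrophage libraries held between 28887725 and 46873056 counts, and the plasma cell libraries held 81792139 and 38343783. Immunoglobulin genes took 9.13% of the counts in replicate 2 of TAM-NIC and at most 0.632% in the other 5 macrophage libraries. The labels number the TAM libraries by mouse, yet replicate 2 of TAM-IC had 88.4 CPM (counts scaled to the library total) of the Y-linked gene Ddx3y and 0 CPM of Xist. Replicate 2 of TAM-NIC had 0.258 CPM of Ddx3y and 40.4 CPM of Xist, so these libraries, both labelled mouse 2, did not come from the same animal. The libraries labelled mouse 1 both had 0 CPM of Ddx3y, with 17.5 CPM of Xist in TAM-IC and 20.3 CPM in TAM-NIC. Of the 10 resident macrophage markers, 9 were lower in both TAM-IC libraries than in both TAM-NIC libraries, against 22.3% of all genes tested. The summed level of the 10 markers was 2069 and 1644 CPM in TAM-IC, 12250 and 10662 CPM in TAM-NIC, and 19212 and 9392 CPM in naive macrophages. Summed neutrophil markers (10 genes) lay at 50344 and 28227 CPM in TAM-IC, 9147 and 17824 CPM in TAM-NIC, and 47866 and 74580.2 CPM in naive macrophages. Summed monocyte markers (7 genes) lay at 2762 and 3847 CPM in TAM-IC, 1576 and 896 CPM in TAM-NIC, and 888 and 1132 CPM in naive macrophages. Summed dendritic cell markers (7 genes) lay at 119 and 76.6 CPM in TAM-IC, 54.9 and 50.7 CPM in TAM-NIC, and 43.6 and 45.3 CPM in naive macrophages. In bulk RNA, fewer cells of a type and less RNA per cell cannot be told apart, and the part of these cell mixtures in the receptor values below was not tested.

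The receptor genes lie on 7 chromosomes of GRCm38 as annotated by GENCODE M21, with whole-gene positions that include introns and untranslated regions. Tlr1 (chr5:64924679-64933563) and Tlr6 (chr5:64952031-64960097) are neighbours on the minus strand. Their transcripts have 454 distinct exact stretches of 50 bases in common, so reads from these stretches could be split between them or lost, and the levels of both are uncertain to that extent. Tlr8 (chrX:167242696-167264329) and Tlr7 (chrX:167304929-167330558) are also neighbours on the minus strand, and Tlr13 lies on the plus strand of the same chromosome (chrX:106143204-106160493). The remaining receptors are Tlr5 (chr1:182954788-182976044), Tlr2 (chr3:83836272-83841767), Tlr4 (chr4:66827584-66930284), Tlr3 (chr8:45395665-45411080) and Tlr9 (chr9:106222598-106226883). Exons of Tlr3 overlap exons of the antisense gene Gm45542, whose reads cannot be told apart in libraries that do not mark the strand.

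Of the 10 receptors, 8 had a window of 250 bases before to 50 bases after an annotated start in RefSeq's GRCm38.p6 table. The windows of Tlr2, Tlr13 and Tlr5 are shown because these are the receptors with a window that reached an unadjusted p under 0.05 in a comparison below. Capitals mark matches to motifs, which were chosen after the sequences had been seen and searched on both strands. Those found in these windows are the kappaB consensus bound by NF-kappaB, the GC box GGGCGG bound by Sp1 and the motif GAGGAA bound by PU.1, a factor of the macrophage lineage. The AP-1 motif TGANTCA, the interferon-stimulated response element and the TATA motif TATAAA were also searched and had no match in them.
Tlr2 (chr3:83841559-83841858, minus strand): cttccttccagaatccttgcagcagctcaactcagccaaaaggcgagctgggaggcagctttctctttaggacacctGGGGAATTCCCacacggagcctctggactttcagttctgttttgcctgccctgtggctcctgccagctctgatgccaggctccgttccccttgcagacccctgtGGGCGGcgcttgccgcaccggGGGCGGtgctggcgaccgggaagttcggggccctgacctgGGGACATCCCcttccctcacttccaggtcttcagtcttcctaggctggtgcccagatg
Tlr13 (chrX:106143025-106143324, plus strand): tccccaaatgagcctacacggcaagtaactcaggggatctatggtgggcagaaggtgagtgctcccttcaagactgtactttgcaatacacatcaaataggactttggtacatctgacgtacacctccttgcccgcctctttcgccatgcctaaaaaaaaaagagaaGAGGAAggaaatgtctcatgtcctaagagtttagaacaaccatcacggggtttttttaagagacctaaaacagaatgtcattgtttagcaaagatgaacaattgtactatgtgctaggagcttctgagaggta
Tlr5 (chr1:182954538-182954837, plus strand): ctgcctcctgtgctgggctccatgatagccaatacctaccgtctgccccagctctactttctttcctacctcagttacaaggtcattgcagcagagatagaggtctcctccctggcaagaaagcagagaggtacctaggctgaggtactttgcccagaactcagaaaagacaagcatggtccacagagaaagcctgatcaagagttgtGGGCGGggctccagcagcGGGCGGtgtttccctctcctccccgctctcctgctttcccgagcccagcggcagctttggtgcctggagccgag
The Tlr2 window held 3 kappaB matches, of which a pair overlaps and begins at -173 and -172 relative to the start, and the third begins at -8. It also held GC boxes at -69 and -48. These positions count from the RefSeq start, which lies 159 bases downstream of the GENCODE M21 start of Tlr2, so by GENCODE the match at -8 and both GC boxes lie inside the gene and the overlapping pair lies just before it. A kappaB match was present in 8.46% of the 32851 windows in the table, a GC box in 35.7%, the PU.1 motif in 28.3%, the AP-1 motif in 7.81%, the interferon-stimulated response element in 3.44% and the TATA motif in 13.6%. The Tlr13 window, whose RefSeq start lies 71 bases downstream of the GENCODE start, held the PU.1 motif at -83, and the Tlr5 window held GC boxes at -42 and -24. Windows not shown held matches too. That of Tlr3 held a kappaB match at -211 and a GC box, counted from a RefSeq start 700 bases downstream of its GENCODE start. The PU.1 motif was found for Tlr1, Tlr8 and Tlr9, the AP-1 motif for Tlr9, the interferon-stimulated response element for Tlr6, and the TATA motif for Tlr6 and Tlr8. A match describes letters in the window and is not a measured binding site.

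Per kilobase of exon, Tlr2 and Tlr13 were the most abundant receptor transcripts in each of the 6 macrophage libraries. Tlr2 ranked first in 4 of them, and Tlr13 ranked first in replicate 2 of TAM-IC and in replicate 2 of the naive macrophages. On this scale Tlr2 stood at 70.9 and 102 CPM per kb in TAM-IC, 100.2 and 311 CPM per kb in TAM-NIC, and 67.8 and 45.8 CPM per kb in naive macrophages. Tlr13 stood at 68.7 and 164 CPM per kb in TAM-IC, 82.9 and 46.8 CPM per kb in TAM-NIC, and 49.0 and 46.2 CPM per kb in naive macrophages. Tlr9, the receptor for unmethylated CpG DNA, ranked last in all 8 libraries and stayed at or below 0.64 CPM per kb. Reads of all 10 receptors were counted in every macrophage library, at levels per kilobase of up to 311 for Tlr2. The lowest level, 0.00926 for Tlr9 in replicate 2 of TAM-NIC, rests on 1 count (0.0322 CPM). That lies below the 0.0966 CPM of 3 counts in that library, so presence of the transcript there is not shown.

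**Figure D1:**
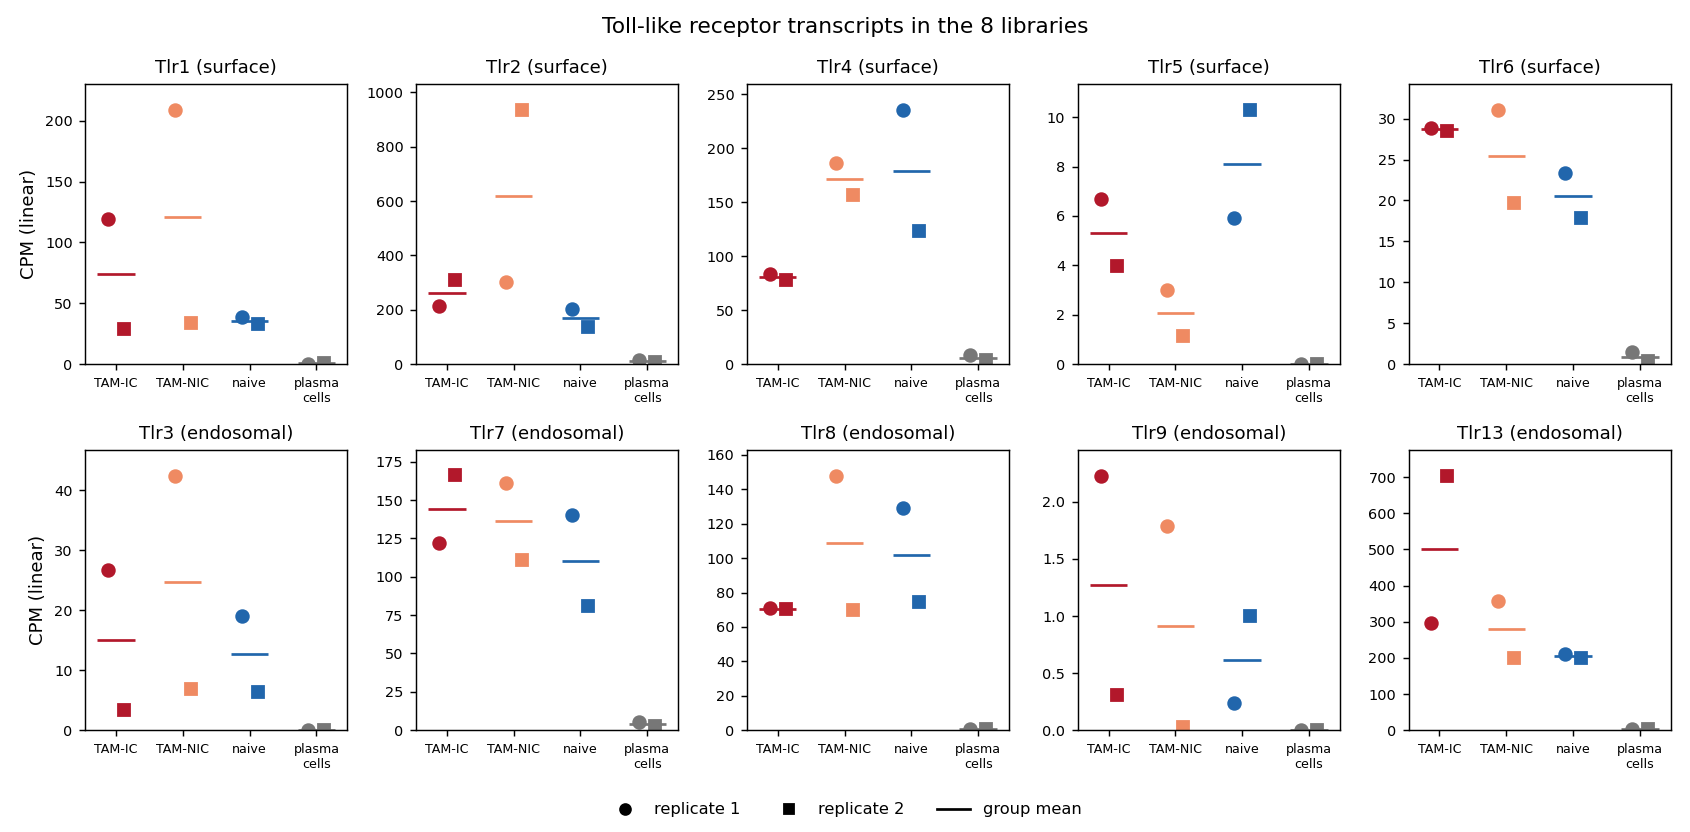
Level of each receptor (CPM, linear axes that start at 0) in the 8 libraries, with circles for replicate 1, squares for replicate 2, lines for group means, surface receptors in the upper row and endosomal receptors in the lower row. Every macrophage library lies above both plasma cell libraries for each receptor, and replicate 1 lies well above replicate 2 for Tlr1, Tlr3 and Tlr9 in both TAM groups.

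Tlr2, which pairs with Tlr1 or Tlr6 to bind bacterial lipopeptides, had 214 and 308 CPM in TAM-IC, 302 and 936 CPM in TAM-NIC, and 204 and 138 CPM in naive macrophages. Every TAM library lay above both naive libraries, and replicate 2 of TAM-NIC lay far above all others. For TAM-NIC over naive macrophages the log2 fold change was 1.98 ± 0.58 (SE), with an edgeR adjusted p of 0.243. For TAM-IC over naive macrophages it was 0.77 ± 0.57 (edgeR adjusted p = 0.554), and for TAM-IC over TAM-NIC it was -1.21 ± 0.57 (edgeR adjusted p = 0.34). None of these passed the threshold of an adjusted p under 0.05. The value over naive macrophages rested in part on the high library: it was 0.98 without replicate 2 of TAM-NIC (edgeR adjusted p = 0.211) and 2.52 ± 0.40 without replicate 1 (edgeR adjusted p = 0.0443), a range of adjusted p over all alternatives of 0.0016 to 0.89. Replicate 2 of TAM-NIC also held 4733 CPM of summed plasma cell markers (8 genes), against 143 to 532 CPM in the other macrophage libraries. In the plasma cell libraries themselves Tlr2 stood at 16.5 and 7.64 CPM, below every macrophage library. The part of plasma cells or of other cells of that library in the Tlr2 values was not tested.

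Tlr1, the Tlr2 partner for triacylated lipopeptides, had 119 and 29.0 CPM in TAM-IC, 209 and 33.5 CPM in TAM-NIC, and 38.7 and 32.7 CPM in naive macrophages. Replicate 1 of each TAM group was high, whereas replicate 2 of each lay near the naive libraries. The edgeR log2 fold changes were 1.93 ± 0.97 for TAM-NIC and 1.19 ± 0.95 for TAM-IC, each over naive macrophages, with adjusted p of 0.408 and 0.584. In TAM-IC over TAM-NIC the value was -0.74 ± 0.94 (edgeR adjusted p = 0.731). Without replicate 1 of its group the value over naive macrophages was -0.02 in TAM-NIC and -0.10 in TAM-IC. Tlr6, the Tlr2 partner for diacylated lipopeptides, was the steadiest receptor and differed 1.75 times between its highest and lowest macrophage library. It had 28.9 and 28.5 CPM in TAM-IC, 31.1 and 19.7 CPM in TAM-NIC, and 23.3 and 17.8 CPM in naive macrophages. Its libraries of TAM-IC lay above both naive libraries, with a log2 fold change of 0.64 ± 0.32 (edgeR adjusted p = 0.41). The ratio of Tlr1 to Tlr6 per kilobase was 4.59 and 1.13 in TAM-IC, 7.49 and 1.89 in TAM-NIC, and 1.85 and 2.04 in naive macrophages. Transcripts of Tlr1 thus lay above those of Tlr6 in every macrophage library, but only slightly in replicate 2 of TAM-IC. The stretches shared by both genes leave that order uncertain, and pairing of the proteins was not measured.

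Tlr4, which binds lipopolysaccharide together with Ly96 and Cd14, was lower in TAM-IC than in both other macrophage groups. It had 83.3 and 78.0 CPM in TAM-IC, 186 and 157 CPM in TAM-NIC, and 236 and 123 CPM in naive macrophages. Both libraries of TAM-IC lay below the other 4 macrophage libraries. The log2 fold change was -1.08 ± 0.36 for TAM-IC over TAM-NIC (edgeR adjusted p = 0.231) and -1.0 ± 0.36 for TAM-IC over naive macrophages (edgeR adjusted p = 0.31). Neither passed the threshold, and both kept their sign when any 1 library was left out, at -1.24 to -0.90 and at -1.39 to -0.44. The resident macrophage markers, whose summed CPM is given above, also lay lower in TAM-IC, among them the sorting antigen Adgre1 at 519 and 549.8 CPM in TAM-IC, 1223 and 599.8 CPM in TAM-NIC, and 1134 and 587 CPM in naive macrophages. TAM-NIC did not differ detectably from naive macrophages in Tlr4, at a log2 fold change of 0.08 ± 0.36 (edgeR adjusted p = 0.95).

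Tlr5, the flagellin receptor, was the scarcest surface receptor per kilobase in the macrophages. It had 6.68 and 3.96 CPM in TAM-IC, 3.0 and 1.13 CPM in TAM-NIC, and 5.91 and 10.3 CPM in naive macrophages. Both libraries of TAM-NIC lay below the other 4 macrophage libraries. The edgeR log2 fold change was -1.82 ± 0.67 for TAM-NIC over naive macrophages (adjusted p = 0.291) and 1.36 ± 0.66 for TAM-IC over TAM-NIC (adjusted p = 0.349). For TAM-IC over naive macrophages it was -0.46 ± 0.64 (edgeR adjusted p = 0.769). The summed neutrophil markers were likewise lowest in both libraries of TAM-NIC. Summed eosinophil markers (7 genes) were too, at 844 and 1181 CPM in TAM-IC, 188 and 617 CPM in TAM-NIC, and 1669 and 2228 CPM in naive macrophages, with Ear6 at 0 in replicate 1 of TAM-NIC. Not every gene followed this sum. Ccr3 had 14.4 and 21.7 CPM in TAM-IC, 169 and 488 CPM in TAM-NIC, and 1083 and 453 CPM in naive macrophages. Il5ra was highest in replicate 2 of TAM-NIC, at 80.8 CPM, and stood at 0.121 CPM in replicate 1. The median log2 fold change in TAM-NIC over naive macrophages was -4.77 over the eosinophil markers and -2.07 over the neutrophil markers, and the part of either in the Tlr5 values was not tested.

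Tlr13, a receptor for bacterial ribosomal RNA that mice have and humans lack, was the most abundant endosomal receptor in all 6 macrophage libraries. It had 296 and 704 CPM in TAM-IC, 357 and 201 CPM in TAM-NIC, and 211 and 199 CPM in naive macrophages. Both libraries of TAM-IC lay above both naive libraries, and replicate 2, the library with Y-linked transcripts, was the highest of all. The log2 fold change of TAM-IC over naive macrophages was 1.46 ± 0.53 (edgeR adjusted p = 0.311), and it was 0.64 without that library. Over TAM-NIC it was 0.86 ± 0.52 (edgeR adjusted p = 0.443), and for TAM-NIC over naive macrophages 0.59 ± 0.52 (edgeR adjusted p = 0.656). Tlr13 lies on the X chromosome, as do Tlr7 and Tlr8, and whether the sex of the donor mouse bears on their levels was not tested.

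Tlr7 and Tlr8, receptors for single-stranded RNA and its breakdown products, overlapped between groups in most comparisons. Tlr7 had 122 and 166 CPM in TAM-IC, 161 and 111 CPM in TAM-NIC, and 140 and 80.9 CPM in naive macrophages, and the groups overlapped. Tlr8 had 71.2 and 70.2 CPM in TAM-IC, 148 and 70.0 CPM in TAM-NIC, and 129 and 74.8 CPM in naive macrophages. Both Tlr8 libraries of TAM-IC lay just below the lower naive library, whereas TAM-NIC libraries overlapped with both other groups. The edgeR log2 fold changes of the pair in the 3 comparisons ran from -0.62 ± 0.45 (Tlr8, TAM-IC over TAM-NIC, adjusted p = 0.522) to 0.55 ± 0.39 (Tlr7, TAM-IC over naive macrophages, adjusted p = 0.541). The ratio of Tlr7 to Tlr8 per kilobase was 1.51 and 2.08 in TAM-IC, 0.955 and 1.39 in TAM-NIC, and 0.952 and 0.95 in naive macrophages. Both TAM-IC libraries thus had the highest ratios, a difference for which no test was run.

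Tlr3, which binds double-stranded RNA and signals through Ticam1, had 26.7 and 3.32 CPM in TAM-IC, 42.4 and 6.83 CPM in TAM-NIC, and 19.1 and 6.33 CPM in naive macrophages. Replicate 1 was higher than replicate 2 in each group, and the groups overlapped throughout. Its edgeR log2 fold changes were -0.75 ± 1.19 (TAM-IC over TAM-NIC, adjusted p = 0.79), 0.36 ± 1.18 (TAM-IC over naive macrophages, adjusted p = 0.906) and 1.11 ± 1.19 (TAM-NIC over naive macrophages, adjusted p = 0.724). The direction of each turned when single libraries were left out. Tlr9 had 99 and 13 counts in TAM-IC, 74 and 1 in TAM-NIC, and 11 and 29 in naive macrophages, which is 2.23 and 0.309 CPM in TAM-IC, 1.79 and 0.0322 CPM in TAM-NIC, and 0.235 and 1.0 CPM in naive macrophages. Its highest macrophage library was 69.1 times its lowest, and its log2 fold changes had standard errors of 1.70 to 1.73, so that a direction was not detectable.

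**Figure D2:**
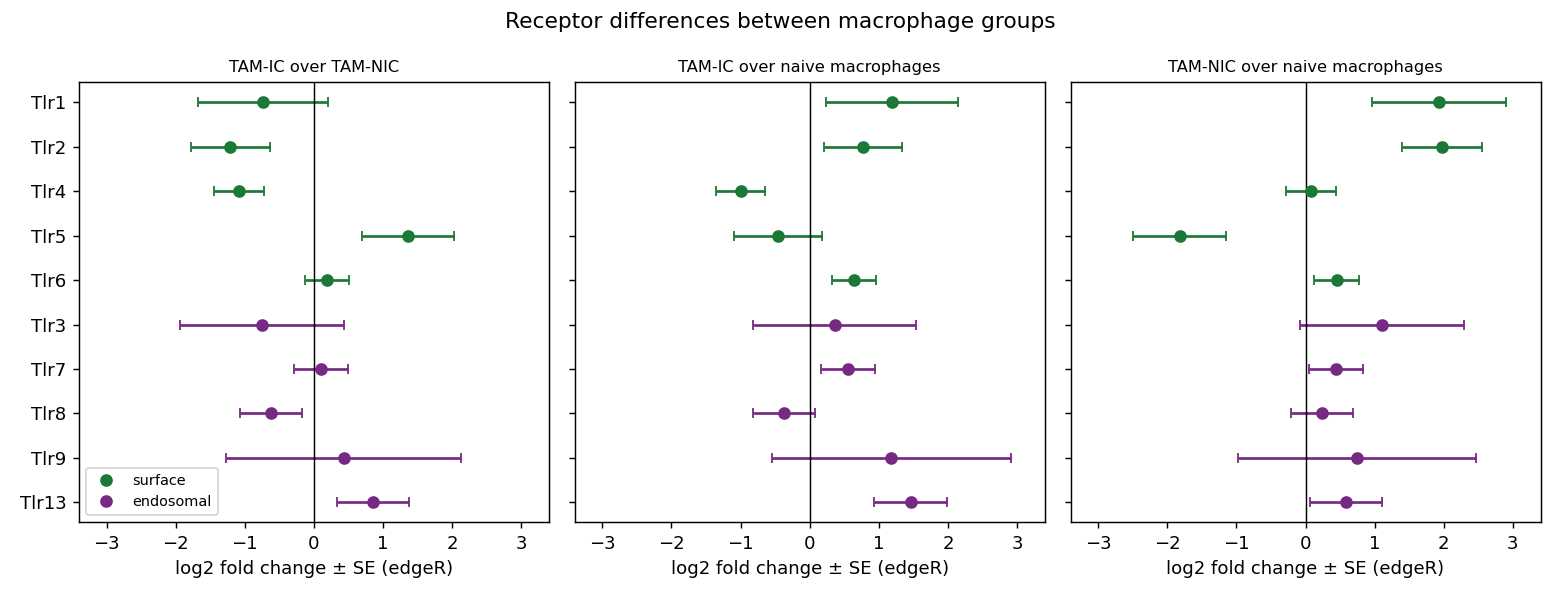
Log2 fold change from edgeR for each receptor in the 3 comparisons of macrophage groups, 2 libraries a group. Bars show a standard error derived from the F statistic of the test. Among the bars that do not reach 0 are Tlr2 and Tlr5 in TAM-NIC over naive macrophages, Tlr13 and Tlr4 in TAM-IC over naive macrophages, and Tlr4 in TAM-IC over TAM-NIC, yet no receptor passed an adjusted p under 0.05.

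In TAM-IC over TAM-NIC, 0 of 10 receptors passed, against 0% of the 15522 genes tested. At an unadjusted p under 0.05 there was 1 (Tlr4, lower), against 17.1% of all genes. Of the receptors, 1 had both TAM-IC libraries above both TAM-NIC libraries (Tlr5, 24.4% of all genes) and 1 had both below (Tlr4, 22.3% of all genes). The median log2 fold change was -0.26 over the receptors and -0.00 over all genes, with a median of -0.74 over the surface receptors and 0.10 over the endosomal receptors. The receptor median rested on single libraries, at 0.89 without replicate 1 of TAM-NIC and -0.40 without replicate 2. DESeq2 called 0 receptors, against 10.4% of all genes, and limma-voom called 0 of the 15522 genes tested.

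In TAM-IC over naive macrophages, 0 of 10 receptors passed, against 0.219% of the genes tested. At an unadjusted p under 0.05 there were 2 (Tlr13 higher and Tlr4 lower), against 14.6% of all genes. Both TAM-IC libraries lay above both naive libraries for 3 receptors (Tlr2, Tlr6 and Tlr13), against 23.0% of all genes, and below for 2 (Tlr4 and Tlr8), against 36.7%. The median log2 fold change was 0.59 over the receptors and 0.00 over all genes, and 7 of the 10 values were positive, against 50.2% of all genes. Without replicate 1 of TAM-IC the receptor median was -0.22, and without replicate 2 it was 0.51. DESeq2 called 0 receptors, against 7.92% of all genes, and limma-voom called 0 of the 15522 genes tested. Scaling by library totals alone moved the median of all genes to -0.153 in this comparison.

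In TAM-NIC over naive macrophages, 0 of 10 receptors passed, against 0% of the genes tested. At an unadjusted p under 0.05 there were 2 (Tlr2 higher and Tlr5 lower), against 15.2% of all genes. They were also the receptors whose groups did not overlap, 1 above (16.6% of all genes) and 1 below (28.9% of all genes). The median log2 fold change was 0.52 over the receptors and 0.06 over all genes, and 9 of the 10 values were positive, against 53.7% of all genes. Without replicate 1 of TAM-NIC the receptor median was -0.08, and without replicate 2 it was 0.86. DESeq2 called 1 receptor, Tlr2, at a log2 fold change of 1.96 ± 0.59 (DESeq2 adjusted p = 0.0174), against 8.18% of all genes. By limma-voom 0 of the 15522 genes tested were called. The 3 comparisons share libraries, so their values for a receptor are not independent of each other. Their counts at an unadjusted p under 0.05, 1 or 2 of 10, lay near the shares of all genes.

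The make-up of the receptor transcripts was compared as shares of the summed CPM per kb, a description without a test. The endosomal receptors took 48.8% and 62.8% in TAM-IC, 45.6% and 21.1% in TAM-NIC, and 48.8% and 51.1% in naive macrophages. The means were 55.8% ± 9.9 in TAM-IC, 33.4% ± 17.3 in TAM-NIC and 49.9% ± 1.62 in naive macrophages (SD, n = 2 each). The groups' ranges meet or overlap between TAM-IC and naive macrophages, and the libraries of TAM-NIC lie below them. The low share of 21.1% belongs to the library in which Tlr2 alone took 69.2%, whereas Tlr2 took 26.5% to 28.5% in the other 5 macrophage libraries. The high share of 62.8% belongs to the library with Y-linked transcripts, in which Tlr13 took 45.7%. Tlr4 took 5.88% and 3.92% in TAM-IC, 8.88% and 6.28% in TAM-NIC, and 16.8% and 12.8% in naive macrophages, so every TAM library lay below both naive libraries. The summed level of all 10 receptors was 255 and 358 CPM per kb in TAM-IC, 378 and 449 CPM per kb in TAM-NIC, and 252 and 173 CPM per kb in naive macrophages.

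**Figure D3:**
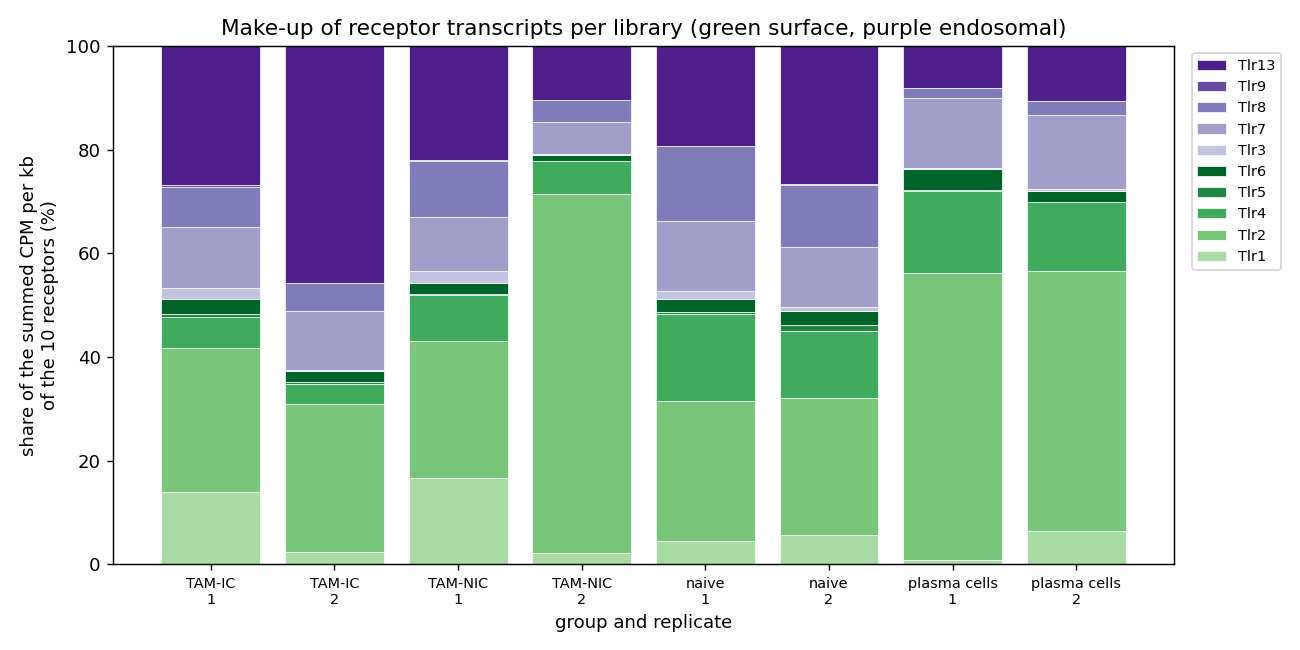
Share of each receptor in the summed CPM per kb of the 10 receptors (%), 1 bar a library, with surface receptors in green and endosomal receptors in purple. Tlr2 fills 69.2% of replicate 2 of TAM-NIC, and Tlr13 fills 45.7% of replicate 2 of TAM-IC.

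The 2 libraries of a group differed widely for some receptors. Tlr1 was higher in replicate 1 than in replicate 2 by a log2 of 1.97 in TAM-IC, 2.70 in TAM-NIC and 0.25 in naive macrophages. Tlr3 was higher in replicate 1 by 2.92 in TAM-IC, 2.69 in TAM-NIC and 1.59 in naive macrophages. Tlr9 was higher in replicate 1 by 2.61 in TAM-IC and 4.53 in TAM-NIC, and lower by 1.87 in naive macrophages. Across all tested genes the median absolute difference between the libraries of a group was 0.369 in TAM-IC, 0.686 in TAM-NIC and 0.351 in naive macrophages, and the 90th percentile was 1.39 in TAM-IC, 2.88 in TAM-NIC and 1.19 in naive macrophages. The differences of Tlr1, Tlr3 and Tlr9 thus lay above the 90th percentile in TAM-IC, that of Tlr9 in TAM-NIC, and those of Tlr3 and Tlr9 in naive macrophages. Irf7, an interferon-induced factor that acts after the endosomal receptors, had 1622 and 230.1 CPM in TAM-IC, 1643 and 256 CPM in TAM-NIC, and 350.5 and 283 CPM in naive macrophages. It was high in the same libraries as Tlr1, which is a description of 4 TAM libraries and not a test. Of the 7 dendritic cell markers, 4 were higher in replicate 1 of both TAM groups and 3 of them (Clec9a, Xcr1 and Ccr9) in all 3 groups, as Tlr3 was. Flt3, Zbtb46 and Siglech were lower in replicate 1 of TAM-NIC. Of the 10 resident macrophage markers, 4 were also higher in replicate 1 of all 3 groups. Among them, C1qa had 459 and 61.6 CPM in TAM-IC, 2295 and 896 CPM in TAM-NIC, and 1786 and 839 CPM in naive macrophages. Clec9a had 6.61 and 1.54 CPM in TAM-IC, 5.85 and 0.998 CPM in TAM-NIC, and 2.01 and 0.346 CPM in naive macrophages. Xcr1 had 11.1 and 1.85 CPM in TAM-IC, 7.35 and 3.06 CPM in TAM-NIC, and 0.661 and 0.104 CPM in naive macrophages. Clec9a and Xcr1 mark the dendritic cells that cross-present antigen. The part of dendritic cells or of resident macrophages in the Tlr3 values was not tested.

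**Figure D4:**
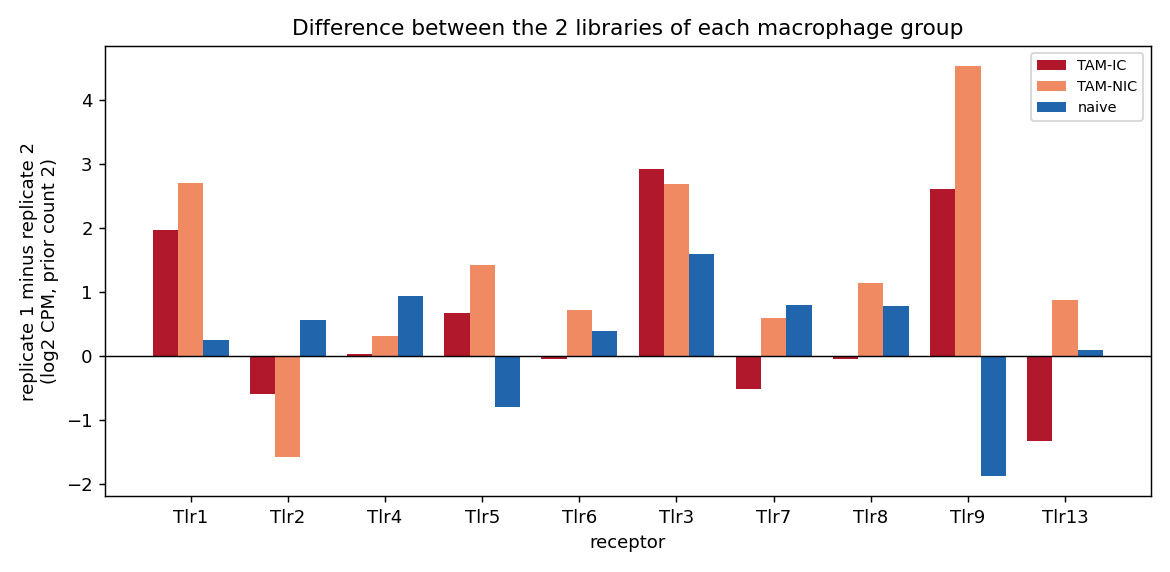
Difference between replicate 1 and replicate 2 of each macrophage group (log2 CPM with a prior count of 2) for each receptor. The bars of Tlr1, Tlr3 and Tlr9 reach 1.97 or more in both TAM groups, and the bars of Tlr6 stay between -0.05 and 0.72.

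Likeness of pattern was measured as Pearson's r of log2 CPM over the 6 macrophage libraries, where all genes of a library share its depth and cell mixture, among 8686 genes. Zfp36l1 was most like Tlr2 (r = 0.997), Dag1 most like Tlr4 (r = 0.996), Mrpl4 most like Tlr13 (r = 0.998), Eri2 most like Tlr5 (r = 0.995) and Aif1 most like Tlr3 (r = 0.992). For the other receptors it was Lzic for Tlr1 (r = 0.989), Elob for Tlr6 (r = 0.995), Cryl1 for Tlr7 (r = 0.988), Dse for Tlr8 (r = 0.994) and Wdfy1 for Tlr9 (r = 0.988). A best match this high was thus found for every receptor, even for the sparsely counted Tlr9. Among the receptors themselves, Tlr6 and Tlr7 were most alike (r = 0.89), followed by Tlr1 and Tlr3 (r = 0.88), and Tlr2 and Tlr5 ran most opposite (r = -0.98). These values are descriptions over 6 libraries and carry no test.

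The other genes of the pathway were taken as 9 lists of 74 genes, of which 72 were tested. By edgeR 0 passed an adjusted p under 0.05 in any of the 3 comparisons. At an unadjusted p under 0.05, 2 were higher (7.09% of all genes) and 12 lower (10% of all genes) in TAM-IC over TAM-NIC. In TAM-IC over naive macrophages 21 were higher (7.11% of all genes) and 2 lower (7.51% of all genes), and in TAM-NIC over naive macrophages 29 were higher (7.78% of all genes) and 2 lower (7.39% of all genes). DESeq2 called 11 lower in TAM-IC over TAM-NIC (7.14% of all genes). It called 12 higher (3.07% of all genes) and 1 lower (4.85%) in TAM-IC over naive macrophages, and 21 higher (4.43%) and 1 lower (3.75%) in TAM-NIC over naive macrophages. By limma-voom 0 were called in each, as were 0 of all 15522 genes tested. The early response genes made up 7 of the 21 and 14 of the 29.

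Of the 6 co-receptors and cofactors, Cd14, which hands lipopolysaccharide to Tlr4, was highest in the same library as Tlr2. It had 95.7 and 86.8 CPM in TAM-IC, 195 and 687 CPM in TAM-NIC, and 144 and 81.4 CPM in naive macrophages. Its log2 fold change was -2.24 ± 0.62 in TAM-IC over TAM-NIC (edgeR adjusted p = 0.2) and 2.09 ± 0.62 in TAM-NIC over naive macrophages (edgeR adjusted p = 0.243). Lbp, the plasma protein that delivers lipopolysaccharide to Cd14, had 75.3 and 51.2 CPM in TAM-IC, 17.7 and 43.9 CPM in TAM-NIC, and 93.8 and 131 CPM in naive macrophages, with a log2 fold change of -1.74 ± 0.47 in TAM-NIC over naive macrophages (edgeR adjusted p = 0.232). Ly96, the lipopolysaccharide-binding subunit of the Tlr4 complex, overlapped between all groups at 15.7 and 18.8 CPM in TAM-IC, 27.3 and 15.8 CPM in TAM-NIC, and 19.6 and 11.2 CPM in naive macrophages.

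Among the 5 chaperone and transport genes, Unc93b1, the escort of the endosomal receptors, was abundant and overlapped between groups. It had 1722 and 1191 CPM in TAM-IC, 2409 and 1328 CPM in TAM-NIC, and 1613 and 1143 CPM in naive macrophages. Hsp90b1, the endoplasmic reticulum chaperone that folds most of these receptors, had 535 and 396 CPM in TAM-IC, 954 and 1459.6 CPM in TAM-NIC, and 603 and 742 CPM in naive macrophages. Its log2 fold change was -1.36 ± 0.37 in TAM-IC over TAM-NIC (edgeR adjusted p = 0.2), and it stood at 1436 and 2068 CPM in the plasma cell libraries. The 5 proteases that cleave endosomal receptors in the lysosome all had negative values in TAM-IC over TAM-NIC, where 49.9% of all genes lay above 0. Their median was -1.84, and 2 of 5 were lower at an unadjusted p under 0.05, against 10% of all genes. The value of Ctss, cathepsin S, was only -0.03, and its groups overlapped. Ctsl, cathepsin L, had 56.5 and 52.3 CPM in TAM-IC, 221 and 197 CPM in TAM-NIC, and 168 and 87.9 CPM in naive macrophages, with a log2 fold change of -1.93 ± 0.36 (edgeR adjusted p = 0.146) in TAM-IC over TAM-NIC. The resident macrophage markers, with a median of -3.49 over 10 genes in that comparison, lay lower as well.

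Of the 6 adaptors, Myd88, the shared adaptor, had 377 and 278 CPM in TAM-IC, 266 and 215 CPM in TAM-NIC, and 144 and 174 CPM in naive macrophages. Every TAM library lay above both naive libraries, and the log2 fold change of TAM-IC over naive macrophages was 1.19 ± 0.30 (edgeR adjusted p = 0.198). Traf6, the ubiquitin ligase that acts after Myd88 and the Irak kinases, had 69.3 and 74.2 CPM in TAM-IC, 51.9 and 62.3 CPM in TAM-NIC, and 39.6 and 42.3 CPM in naive macrophages. Its log2 fold change over naive macrophages was 0.97 ± 0.22 in TAM-IC (edgeR adjusted p = 0.172). Of the 16 kinases and ubiquitin ligases, 14 had a positive value in TAM-IC over naive macrophages (50.2% of all genes), with a median of 0.47, and 4 were higher at an unadjusted p under 0.05 (7.11% of all genes). By edgeR 0 of the 16 passed the adjusted threshold.

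Among the 6 transcription factors, Rel, the NF-kappaB subunit c-Rel, had 87.5 and 75.4 CPM in TAM-IC, 58.8 and 158 CPM in TAM-NIC, and 26.7 and 22.4 CPM in naive macrophages. The log2 fold change over naive macrophages was 1.89 ± 0.46 in TAM-IC (edgeR adjusted p = 0.188) and 2.27 ± 0.47 in TAM-NIC (edgeR adjusted p = 0.219). Irf5, which acts with Myd88 on cytokine genes, had 514 and 858 CPM in TAM-IC, 399.6 and 284 CPM in TAM-NIC, and 272 and 196 CPM in naive macrophages. All TAM libraries lay above both naive libraries for Rel and for Irf5. All 10 negative regulators had positive values in TAM-IC over naive macrophages (50.2% of all genes), with a median of 0.67 and 4 of 10 higher at an unadjusted p under 0.05 (7.11% of all genes). Tnfaip3, the deubiquitinase A20, had 125 and 131 CPM in TAM-IC, 149 and 2167 CPM in TAM-NIC, and 78.0 and 60.1 CPM in naive macrophages, with a log2 fold change of 4.18 ± 1.16 in TAM-NIC over naive macrophages (edgeR adjusted p = 0.234). Its highest library was replicate 2 of TAM-NIC, as for Tlr2.

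The early response genes are cytokines, chemokines and other targets that macrophages switch on within hours of receptor signalling, and 16 of 18 were tested. In TAM-NIC over naive macrophages all 16 had positive values (53.7% of all genes), with a median log2 fold change of 4.73 against 0.06 over all genes, and 14 were higher at an unadjusted p under 0.05 (7.78% of all genes). Without replicate 2 of TAM-NIC the median was 1.41 and 8 of 17 tested were higher at that p, against 10% of all genes in that fit. Without replicate 1 the median was 5.68 and 16 of 17 were higher, against 13.1% of all genes. In TAM-IC over naive macrophages the median was 2.75, and at that p 7 were higher (7.11% of all genes) and 1 lower (7.51%). In TAM-IC over TAM-NIC the median was -3.12, with 0 higher (7.09% of all genes) and 6 lower (10% of all genes). The median of -3.12 rested largely on replicate 2 of TAM-NIC, as it was -0.14 without that library. Ccl4, a chemokine, had 107 and 55.8 CPM in TAM-IC, 149 and 413 CPM in TAM-NIC, and 8.32 and 5.3 CPM in naive macrophages. Every TAM library lay above both naive libraries, with log2 fold changes over naive macrophages of 3.72 ± 0.61 in TAM-IC (edgeR adjusted p = 0.0977) and 5.49 ± 0.67 in TAM-NIC (edgeR adjusted p = 0.183). Il1b, the cytokine interleukin-1 beta, had 331 and 419.6 CPM in TAM-IC, 322 and 1735 CPM in TAM-NIC, and 40.7 and 51.7 CPM in naive macrophages. Il1a, its relative, had 3.55 and 2.16 CPM in TAM-IC, against 50.5 and 659.5 CPM in TAM-NIC and 47.5 and 21 CPM in naive macrophages. Il12b had 3.46 and 1.66 CPM in TAM-IC, 5.49 and 9.76 CPM in TAM-NIC, and 0 and 0.0346 CPM in naive macrophages. Its fitted values over naive macrophages thus rest on almost no naive reads, so their size is not reliable. Il23a was sparse in naive macrophages too, at 0.0853 and 0.208 CPM, and both genes enter the medians and counts above.

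**Figure D5:**
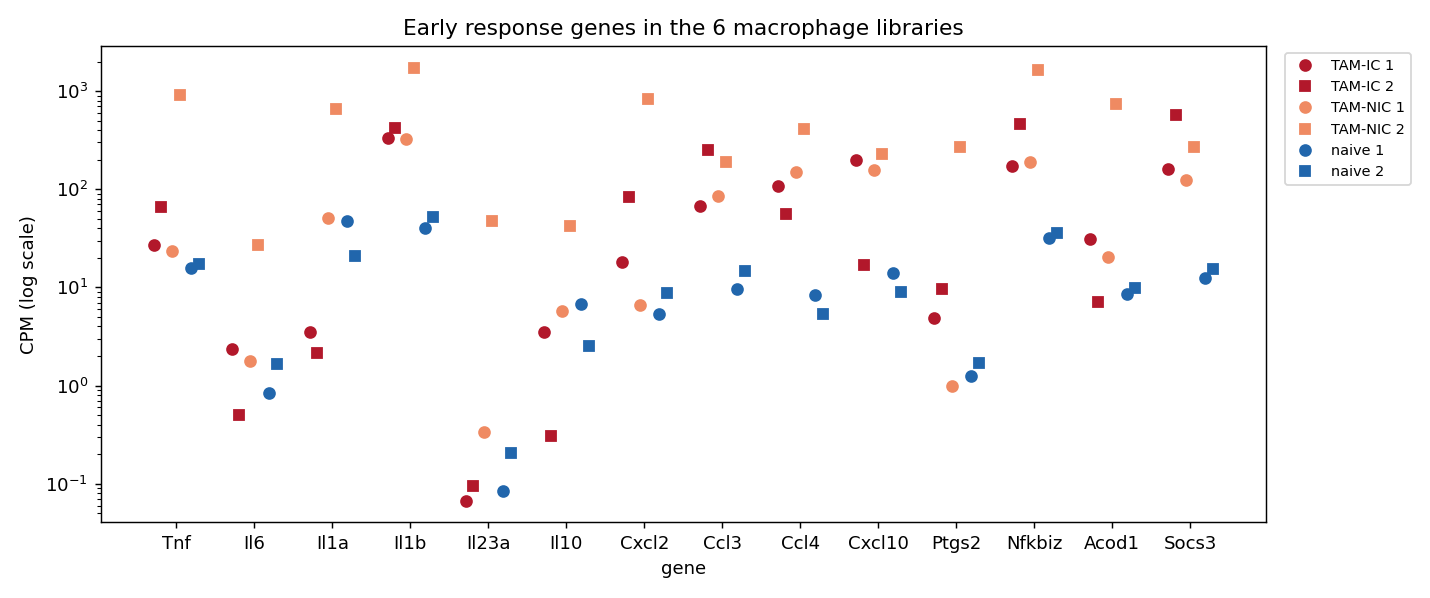
Level (CPM on a log axis) of the 14 of 18 early response genes with a count in every macrophage library, 1 point a library. Ccl3, Ccl4, Socs3 and Il1b lie higher in all 4 TAM libraries than in both naive libraries, and replicate 2 of TAM-NIC holds the highest point for all but Ccl3 and Socs3.

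In the plasma cell libraries every receptor stood below all 6 macrophage libraries, although for Tlr9 the lowest macrophage library held only 1 count. Tlr2 was again first per kilobase, at 5.46 and 2.54 CPM per kb, and took 55.4% and 50.2% of the summed level of the 10 receptors. The sum was 9.86 and 5.05 CPM per kb, against 173 to 449 CPM per kb in macrophages. Tlr4 had 8.67 and 3.70 CPM, Tlr7 had 5.44 and 2.95 CPM, and Tlr13 had 3.45 and 2.32 CPM. Tlr9 had 0 counts in both, which allows up to 0.0367 and 0.0782 CPM by counting error alone, and Tlr5 had 0.0122 and 0.0261 CPM, below those limits. The ratio of Tlr7 to Tlr8 was 6.98 and 5.22 per kilobase, above its range of 0.95 to 2.08 in macrophages. Summed neutrophil markers of 1274 and 1393 CPM were also present in these libraries, and their part in the receptor levels was not tested. The tables of the cell types were deposited separately, so the levels are set side by side without a test.

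The other mouse receptors Tlr11 and Tlr12, which bind profilin of parasites, were no part of the 10 and are given for comparison. Tlr12 had 24.4 and 4.91 CPM in TAM-IC, 105 and 20.2 CPM in TAM-NIC, and 21.4 and 10.6 CPM in naive macrophages. Like Tlr1 and Tlr3, it was higher in replicate 1 of both TAM groups. So were 4 of the 7 dendritic cell markers, Clec9a and Xcr1 among them, and 4 of the 10 resident macrophage markers, C1qa among them. The remaining markers of both lists were not. The part of either cell type in the Tlr12 values was not tested. Tlr11 had 10.4 and 3.75 CPM in TAM-IC, 4.81 and 4.03 CPM in TAM-NIC, and 2.92 and 3.12 CPM in naive macrophages, so every TAM library lay above both naive libraries. Neither gene passed the threshold in any comparison by edgeR.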

How the data were processed

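Per the labels' protocols, the SMART-Seq v4 kit was used, which does not mark strand. STAR, featureCounts, DESeq2 1.26, mm10 and GRCm38 are named in the submitters' processing notes. The authors deposited whole-number read counts per gene, not normalized, in a table of 6 macrophage libraries and a table of 2 plasma cell libraries, and 0 columns were left without a sample. Macrophage identifiers were matched to GENCODE M21 (47224 of 47643; the rest held no more than 0.117% of counts in any library), and the plasma cell table gives symbols. The sources used here do not give how reads with several positions were counted. CPM uses the library's total count, and CPM per kb the union of exons.

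An edgeR 4.0.16 quasi-likelihood model (R 4.3.3) took the 6 macrophage libraries with group as its term, TMM scaling and filterByExpr (minimum count 10, minimum total 15), leaving 15522 genes, all 10 receptors among them, and 3 residual degrees of freedom. P-values were adjusted by Benjamini-Hochberg over all genes, with a threshold of 0.05. The standard errors given with edgeR values were derived, as the absolute log2 fold change divided by the square root of the test's F statistic. DESeq2 1.42.0, limma 3.58.1 (voom), other scalings, filters and dispersions, a replicate block and omitted libraries were alternatives. The scripts were tested on simulated data with the same dispersion for every gene and changes in TAM-IC only. That checks the code and not its error rate at the spread of these libraries. The receptors, lists and tests were chosen with earlier results of these data known. The text names all receptors, up to 3 pathway genes per list and comparison with the smallest p, and the gene most like each receptor. Irf7, Unc93b1, Ly96, Xist, Ddx3y, Clec9a, Xcr1, Ccr9, Flt3, Zbtb46, Siglech, C1qa, Ear6, Ccr3, Il5ra, Ctss, the Ig share and some early response genes were named after their values were seen.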

Additional observations from a re-analysis of the deposited data

How the results depend on the processing

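Of 180 receptor values with 1 library left out, 158 kept direction and side of the threshold, and of 270 under other settings 260 did. The counts of all genes called depended strongly on the method, and the cause was not tested. For TAM-IC over TAM-NIC, 0 genes were called by edgeR, against 22 with bias-adjusted dispersions, 1618 with DESeq2, 1871 without a filter and 28 with the replicate block, and 0 to 1510 with 1 library left out, the 1510 without replicate 1 of TAM-NIC. For TAM-IC over naive macrophages, 34 genes were called, against 56 with bias-adjusted dispersions, 1229 with DESeq2, 18 with library totals, 0 with limma-voom, 1437 without a filter, 664 with only the 4 libraries compared, 57 with the replicate block and 22 with RLE size factors, and 0 to 534 with 1 library left out. For TAM-NIC over naive macrophages, 0 genes were called, against 1269 with DESeq2, 1548 without a filter and 0 to 477 with 1 library left out, and the replicate block gave 0.

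Of the receptors, edgeR called 0 in each comparison. Without a filter edgeR called 1 in TAM-IC over naive macrophages (Tlr13, 1.43, adjusted p = 0.0291), against 1437 of all 25982 genes in that fit. In TAM-NIC over naive macrophages it called 2 (Tlr1, 1.92, adjusted p = 0.00227, and Tlr2, 1.95, adjusted p = 0.0016), against 1548 of 25982. Tlr1 in TAM-NIC overlapped with naive macrophages, at 209 and 33.5 CPM against 38.7 and 32.7 CPM. DESeq2 called 1 in TAM-NIC over naive macrophages, and omitting libraries gave 0 to 1. The replicate block gave 0 in each comparison. Same-numbered libraries of the TAM groups deviated together at r = 0.152, and with the naive libraries at 0.039 and 0.089, and sex-linked transcripts differ between the TAM libraries labelled mouse 2 but not between those labelled mouse 1, so the block was kept as an alternative.

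Some receptor log2 fold changes turned their sign. Tlr3 in TAM-IC over naive macrophages was -0.14 with limma-voom and -0.09 with the block, and Tlr9 was -0.18 with the block. In TAM-NIC over naive macrophages Tlr4 was -0.07 with library totals, and Tlr9 was -0.28 with limma-voom and -0.99 with the block. With 1 library left out, the ranges in TAM-IC over TAM-NIC were -2.02 to 1.19 for Tlr1, -0.15 to 0.61 for Tlr6, -2.85 to 1.18 for Tlr3, -0.19 to 0.45 for Tlr7, -1.10 to 0.08 for Tlr8 and -1.53 to 5.21 for Tlr9. In TAM-IC over naive macrophages they were -0.10 to 1.85 for Tlr1, -1.74 to 1.39 for Tlr3, -0.71 to 0.09 for Tlr8 and -0.79 to 2.55 for Tlr9. In TAM-NIC over naive macrophages they were -0.02 to 2.72 for Tlr1, -0.33 to 0.62 for Tlr4, -0.85 to 2.12 for Tlr3, -0.48 to 0.69 for Tlr8 and -4.01 to 2.11 for Tlr9. A group left with 1 library was assumed to vary like the others. The endosomal share moved by less than 1 SD between scales of length.

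With 2 libraries a group and 3 residual degrees of freedom, the standard errors of 0.32 to 1.73 limit the precision, and a missed threshold does not show that levels were alike. Depth limits Tlr9 most, with 1 to 99 counts a macrophage library. The libraries differ in summed markers of other cells and in immunoglobulin share, which cannot be told apart from the groups here. The limits given for a count of 0 cover counting error only.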
